A study of Mus musculus with 18 samples.

Results

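Immediate early response genes are the genes a cell transcribes first after a growth signal or a stress, before any new protein has been made. The expression of 10 of them, *Fos*, *Fosb*, *Fosl1*, *Jun*, *Junb*, *Egr1*, *Egr2*, *Egr3*, *Atf3* and *Ier3*, was compared between mice that lack repeat B of *Xist* and wild-type (WT) mice, in primary mouse embryonic fibroblasts (MEFs) and in liver. The genes were taken by name, and all 10 have a row in both count tables, which list 21959 genes for MEFs and 51826 for liver. *Xist* is the long noncoding RNA that coats and silences one X chromosome in female cells, and repeat B is the stretch of it that brings in Polycomb complexes. The mice were made by CRISPR/Cas9 with a pair of guides flanking repeat B, and animals of the ICR stock are named in the study's methods. The 12 libraries were 3 RepB-/- and 3 WT libraries of each tissue, with the letter B in the titles read as RepB-/- and W as WT. The fibroblasts were labelled as a primary MEF line and also as tail, and the labels name no treatment of any group. The labels give neither the age nor the sex of the liver donors, and nothing says whether replicates came from separate animals or cultures, so p-values measure only the spread between these libraries.

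Depth ranged from 11540344 to 20587556 counts in MEFs and from 37682201 to 51542709 in liver. The 3 WT MEF libraries were shallower than the 3 RepB-/- libraries, yet between 17191 and 17664 genes had a count in them, against 15453 to 15545 in RepB-/-. Markers fitted the labelled tissues, with a fibroblast list (*Col1a1*, *Col1a2*, *Dcn*, *Thy1*, *Prrx1*) summing to between 9614 and 14908 CPM (read counts scaled to the library total, plain for sums over markers and with TMM scaling for single genes) in MEFs and a hepatocyte list (*Alb*, *Apoa1*, *Ttr*, *Trf*, *Serpina1a*) summing to between 130070 and 186686 CPM in liver. The MEF table used here has no row for *Xist*, so its label could not be checked against the deleted gene. In liver, RepB-/- replicate 2 stood apart, with 4 *Xist* counts and 4342 counts of Y-linked genes, while the other 5 livers held at least 14494 *Xist* counts and at most 1 Y-linked count. By these counts it is a male liver, so sex was not even between the liver genotypes. It was kept in the main fits as 1 of the 3 RepB-/- livers. Without it, 0 of the 8 genes tested in liver were called at an adjusted p under 0.05, and 0 of all 16797 genes. Replicate 1 of both genotypes in liver also stood apart, with fetal-stage markers (*Afp*, *H19*, *Igf2*, *Dlk1*, *Gpc3*) at 6429 CPM in RepB-/- and 5654 CPM in WT, against 4.60 to 16.0 CPM in the other 4 livers.

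The products of these genes are mostly transcription factors. Proteins of the FOS family (*Fos*, *Fosb*, *Fosl1*) pair with proteins of the JUN family (*Jun*, *Junb*) through leucine zippers and form AP-1, which binds TGANTCA. *Atf3* encodes a related zipper protein that is induced by stress and often represses its targets, and the EGR genes encode zinc finger factors that bind GC-rich sites. *Ier3* differs from the rest in that it encodes no transcription factor but a small protein that bears on survival and ERK signalling. Growth factors switch the genes on through MAP kinases, serum response factor with its ETS partners at CArG boxes, and CREB or ATF factors at TGACGTCA or the shorter TGACGT. The mRNAs are short-lived and are removed through AU-rich element binding proteins, and phosphatases of the DUSP group switch the kinases off again. In fibroblasts the genes are known for the answer to serum, and in liver for the first phase of regeneration.

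Start regions of 4 of the genes are shown because they cover both directions of change in MEFs, *Fos* and *Fosb* among the genes that rose and *Junb* and *Atf3* among those that fell. Each stretch runs from 150 bases before to 10 bases into the transcript of RefSeq (GRCm38.p6), 5′ to 3′ on the gene's strand. Capitals mark TGACGT on either strand, TATAAA, and the EGR site GCGNGGGCG.
Fos: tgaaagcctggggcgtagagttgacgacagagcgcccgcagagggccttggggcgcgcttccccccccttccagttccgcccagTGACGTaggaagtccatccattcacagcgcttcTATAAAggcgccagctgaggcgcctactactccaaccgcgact
Fosb: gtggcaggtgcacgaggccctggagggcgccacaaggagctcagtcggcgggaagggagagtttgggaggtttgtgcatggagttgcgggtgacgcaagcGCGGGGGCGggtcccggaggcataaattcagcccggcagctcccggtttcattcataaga
Junb: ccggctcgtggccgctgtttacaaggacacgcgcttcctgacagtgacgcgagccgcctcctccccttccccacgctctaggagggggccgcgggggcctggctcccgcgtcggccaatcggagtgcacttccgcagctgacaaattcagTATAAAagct
Atf3: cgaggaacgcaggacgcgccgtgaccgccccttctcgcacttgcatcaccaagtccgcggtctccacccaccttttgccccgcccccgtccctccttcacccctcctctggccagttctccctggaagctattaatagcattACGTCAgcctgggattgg

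The *Fos* stretch is chr12:85473740-85473899 on the plus strand, the *Fosb* stretch chr7:19310036-19310195, the *Junb* stretch chr8:84978739-84978898 and the *Atf3* stretch chr1:191183324-191183483, the last 3 on the minus strand. By the RefSeq starts, each covers promoter sequence and the first bases of exon 1. The *Junb* start used by RefSeq lies 30 bases before the gene as the liver table gives it. By that table the whole *Junb* stretch lies before the gene. The *Atf3* start used by RefSeq lies 34706 bases inside the gene as the liver table gives it, so it is the start of a shorter transcript. Both strands of 7 of the 10 genes were searched over 300 bases, from 250 before to 50 after the start, and *Fosl1*, *Egr1* and *Egr3* had no sequence in the table used here. TGACGT, which is also contained in TGACGTCA, was present in 2 of the 7, in *Fos* at positions -66 to -61 and in *Atf3* at -8 to -3 on the other strand, and 7.51% of all 32817 windows of this length held it. TATAAA was present in *Fos* and, at the RefSeq start itself, in *Junb* (2 of the 7, against 13.6% of all windows), and GCGNGGGCG in *Fosb* alone (1 of the 7, against 5.56%). CCAAT was present in *Jun*, *Junb*, *Atf3* and *Ier3* (4 of the 7, against 37.4%) and CACGTG in *Egr2* (1 of the 7, against 7.15%). The CArG box (1.63% of all windows), TGACGTCA (1.79%) and TGANTCA (7.81%) were in 0 of the 7, which says only that these letters are not in these windows.

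In MEFs, 2 of the 10 genes rose in RepB-/-, *Fos* and *Fosb*, and 7 fell, *Fosl1*, *Jun*, *Junb*, *Egr1*, *Egr2*, *Egr3* and *Atf3*. *Ier3* did not pass the test. The question was whether gene expression differed between RepB-/- and WT cells, tested with edgeR (quasi-likelihood test, Benjamini-Hochberg adjustment) over 13306 genes at a threshold of 0.05. At that threshold 39.1% of all genes tested were called (19.4% higher and 19.7% lower), and the median log2 difference was -0.40 for the 10 genes and 0.00 for all genes. The libraries of the genotypes did not overlap for the same 9 genes, 2 higher (26.4% of all genes tested) and 7 lower (25.8%), against 52.2% of all genes in either direction, so neither the call nor the separation is rare in these MEFs. In bulk RNA, fewer cells that express a gene and less RNA per cell cannot be told apart.

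**Figure D1:**
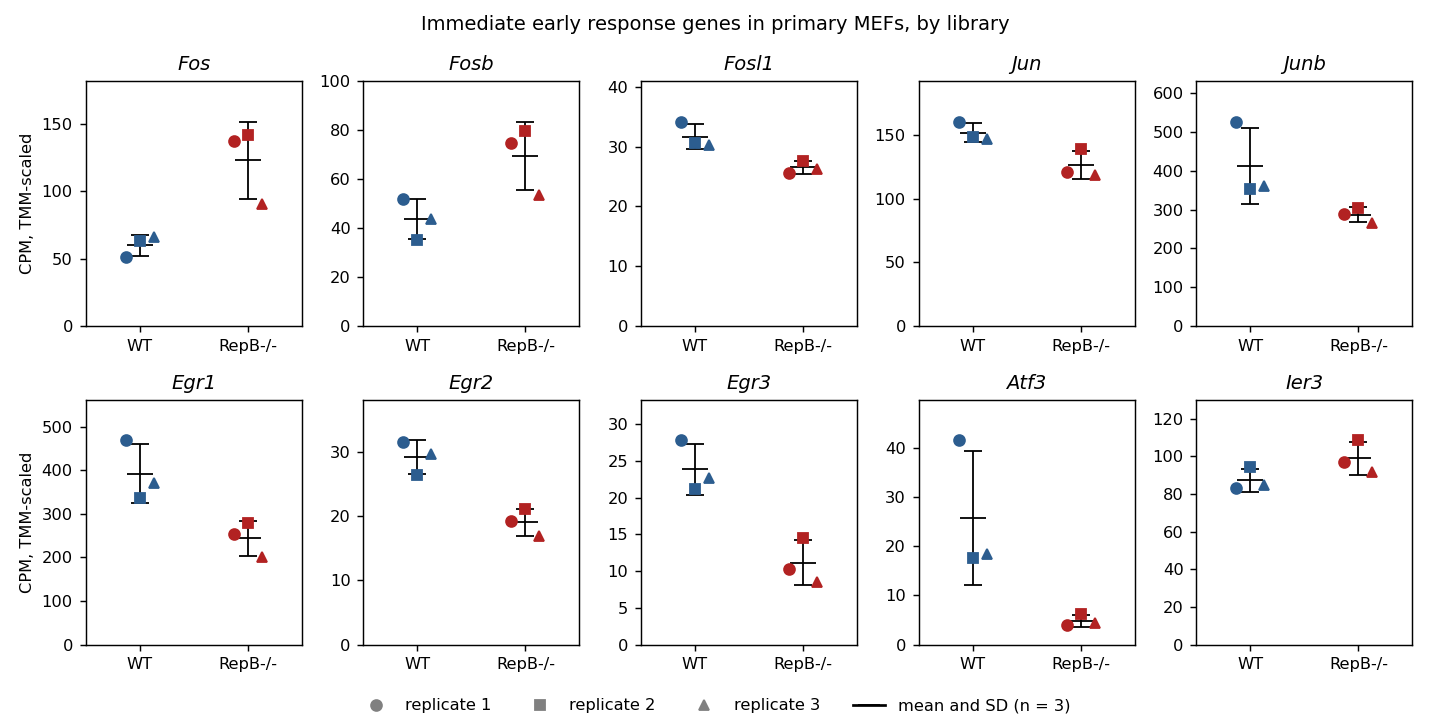
Normalized expression (TMM-scaled CPM, linear axes from 0) of the 10 genes in each MEF library, blue for WT and red for RepB-/-, with symbols for replicate numbers and black bars for the mean and SD of 3 libraries. *Fos* and *Fosb* were higher in all RepB-/- libraries, *Ier3* overlapped, and the other 7 were lower, with WT replicate 1 the highest library for each of those 7.

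*Fos*, the founding member of its family, stood at 137, 142 and 90.1 CPM in the 3 RepB-/- MEF libraries and at 50.8, 62.8 and 65.9 CPM in the 3 WT libraries. RepB-/- replicate 3 was the lowest of its genotype and was still above every WT library. The log2 difference was 1.03 ± 0.14 (SE, n = 3 per genotype; 2.05-fold higher, adjusted p = 1.24e-04). *Fosb*, the close relative of *Fos*, measured 75.0, 79.9 and 53.7 CPM in RepB-/- against 51.8, 35.4 and 43.9 CPM in WT. RepB-/- replicate 3 and WT replicate 1 came within a few CPM of each other without crossing. *Fosb* rose by 0.68 ± 0.15 on the log2 scale (1.60-fold, adjusted p = 0.00260). RepB-/- replicate 3 was thus the lowest RepB-/- library for both genes that rose, and without it the log2 difference was 1.22 for *Fos* (adjusted p = 6.26e-06) and 0.84 for *Fosb* (adjusted p = 4.59e-04). Over all 6 libraries left out in turn, the differences ranged from 0.93 to 1.22 for *Fos* and from 0.54 to 0.84 for *Fosb*, with an adjusted p of at most 0.0181.

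*Fosl1*, which encodes FRA-1, a FOS protein without the transactivation domain, moved the other way within the same family. It measured 25.6, 27.7 and 26.3 CPM in RepB-/- and 34.2, 30.7 and 30.3 CPM in WT, a gap that was narrow but without overlap. The log2 difference was -0.25 ± 0.09 (adjusted p = 0.0390). This was the least stable call of the 10 genes, since it was lost with DESeq2 (adjusted p = 0.0823), with no filter on low counts (0.105), and without any one of RepB-/- replicates 1, 2 or 3 or WT replicates 1 or 3 (0.0558 to 0.133). *Fosl2*, the remaining member of the family, rose from 392 ± 13.9 to 563 ± 27.2 CPM (SD, n = 3; log2 difference 0.52, adjusted p = 1.12e-04). Per length, the 4 FOS genes summed to 143, 145 and 115 CPM per kilobase of exon in RepB-/- and to 86.1, 89.6 and 89.9 in WT. *Fos* held between 33.3% and 41.5% of that sum in RepB-/- and between 25.1% and 31.1% in WT, and *Fosl1* between 8.79% and 11.3% against 16.6% to 19.5%. *Fosl2* had the largest mean share in both genotypes, 43.5% ± 3.94 in RepB-/- and 45.8% ± 1.29 in WT (SD, n = 3), but in RepB-/- its range of 40.3% to 47.9% overlapped that of *Fos*.

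The JUN genes, the partners of FOS proteins, fell. *Jun* measured 121, 139 and 119 CPM in RepB-/- and 160, 148 and 147 CPM in WT, with RepB-/- replicate 2 closest to the WT libraries. Its log2 difference of -0.27 ± 0.08 (adjusted p = 0.0147) was no longer called without RepB-/- replicate 1 (adjusted p = 0.0750) or replicate 3 (0.0774). *Junb*, which competes with *Jun* and can hold it in check, measured 290, 304 and 265 CPM in RepB-/- and 526, 353 and 360 CPM in WT. WT replicate 1 was far above the other 2 WT libraries. *Junb* fell by 0.53 ± 0.13 on the log2 scale (adjusted p = 0.00480), and by 0.32 ± 0.06 without WT replicate 1 (adjusted p = 4.28e-04). *Jund*, the steadily expressed JUN gene, had between 112 and 166 counts per MEF library. It stood at 7.81 ± 1.03 CPM in RepB-/- and 8.01 ± 1.11 CPM in WT (SD, n = 3) and did not pass the test (adjusted p = 0.898). The 3 JUN genes together gave 169, 181 and 156 CPM per kilobase in RepB-/- and 284, 204 and 207 in WT, with *Junb* at 73.8% ± 0.77 of the sum in RepB-/- and 77.0% ± 2.92 in WT.

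**Figure D2:**
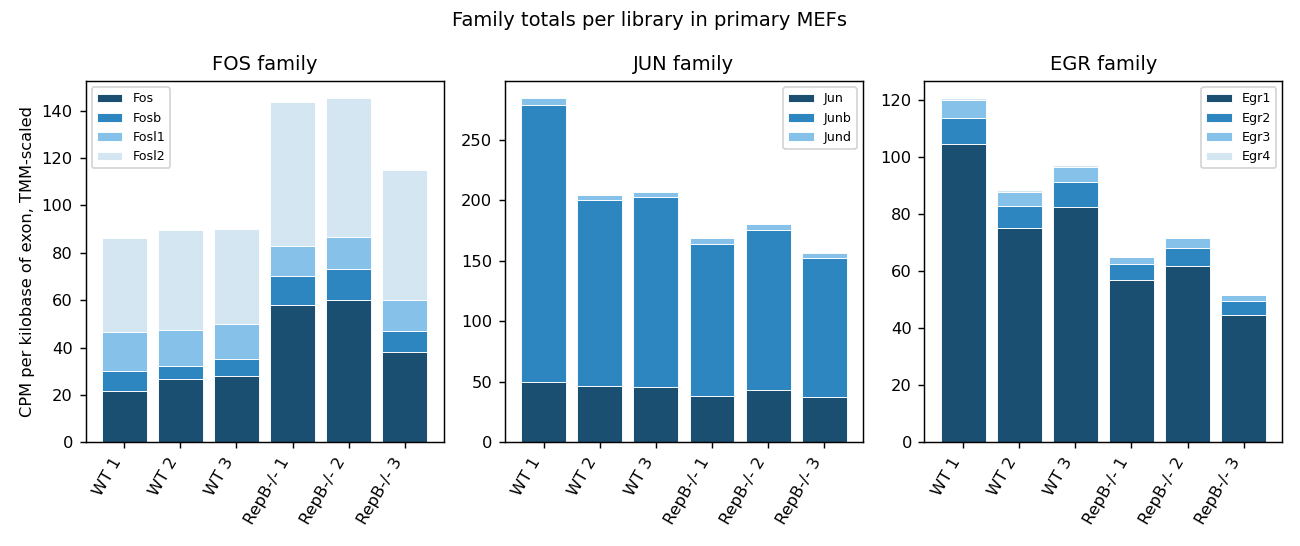
Sums of the FOS, JUN and EGR genes in each MEF library, in TMM-scaled CPM per kilobase of exon, with 1 bar per library and shades of blue for the genes of a family. The FOS sum was higher in every RepB-/- library (115 to 145 against 86.1 to 89.9), and the JUN sum (156 to 181 against 204 to 284) and the EGR sum (51.7 to 71.6 against 88.4 to 121) were lower in each.

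The 3 EGR genes all fell. *Egr1*, the most abundant of them, measured 255, 278 and 200 CPM in RepB-/- and 468, 337 and 370 CPM in WT, a log2 difference of -0.68 ± 0.13 (adjusted p = 9.12e-04). *Egr2*, known for its part in hindbrain and myelin development, measured 19.2, 21.1 and 16.9 CPM in RepB-/- and 31.6, 26.5 and 29.8 CPM in WT, and fell by 0.62 ± 0.11 on the log2 scale (adjusted p = 7.14e-04). *Egr3*, known from muscle spindles and T cells, measured 10.3, 14.5 and 8.56 CPM in RepB-/- and 27.8, 21.1 and 22.6 CPM in WT, and fell by 1.10 ± 0.17 (2.14-fold lower, adjusted p = 2.55e-04). No library of one genotype reached into the range of the other for any of these genes, and in each of them RepB-/- replicate 3 was the lowest and WT replicate 1 the highest library. *Egr4*, the last gene of the family, fell by 1.65 from 1.44 CPM in WT to 0.459 CPM in RepB-/-. That value rests on only 13, 6 and 8 counts in the RepB-/- libraries and 14, 21 and 32 in the WT libraries. *Egr1* made up 86.7% ± 0.51 of the EGR sum per length in RepB-/- and 85.5% ± 0.98 in WT (SD, n = 3). The share of *Egr3* was between 3.59% and 4.60% in RepB-/- and between 5.24% and 5.43% in WT.

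*Atf3* had the largest difference of the 10 genes. It measured 3.92, 6.25 and 4.41 CPM in RepB-/- and 41.6, 17.6 and 18.4 CPM in WT, from between 77 and 121 counts per RepB-/- library and between 284 and 519 per WT library. WT replicate 1 was more than 20 CPM above the other WT libraries, and these 2 were still above every RepB-/- library. The log2 difference was -2.39 ± 0.30 (5.25-fold lower, adjusted p = 5.48e-05), and without WT replicate 1 it was -1.89 ± 0.17 (adjusted p = 5.76e-08). Among the 2621 genes called lower, *Atf3* was the 240th by the size of its fall. *Ier3* measured 96.8, 109 and 91.7 CPM in RepB-/- and 83.0, 94.3 and 84.6 CPM in WT. The genotypes overlapped at RepB-/- replicate 3 and WT replicate 2, and the log2 difference of 0.18 ± 0.08 did not pass the test (adjusted p = 0.0987, 95% interval 0.00 to 0.36). It did pass with no filter (adjusted p = 0.0393) and without WT replicate 2 (0.0493).

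Across the 6 MEF libraries the genes that fell ran close together. Pearson correlations of log2 CPM between pairs of *Jun*, *Junb*, *Egr1*, *Egr2*, *Egr3*, *Atf3* and *Fosl1* ranged from 0.89 (*Junb* and *Egr2*) to 0.99 (*Fosl1* and *Atf3*). *Fos* correlated at 0.84 with *Fosb* and also at 0.84 with *Ier3*, which was not called. Correlations of *Fos* or *Fosb* with the genes that fell ranged from -0.89 (*Fos* and *Atf3*) to -0.37 (*Fosb* and *Junb*). These are descriptions over 6 points that share the genotype difference and the library depths. Per length, the order of the levels in RepB-/- MEFs was *Junb* (120 ± 8.67 CPM per kilobase by plain library size), *Ier3* (84.2 ± 7.80), *Egr1* (52.3 ± 8.80), *Fos* (50.2 ± 11.8), *Jun* (38.0 ± 3.56), *Fosl1* (12.6 ± 0.57), *Fosb* (10.7 ± 2.18), *Egr2* (5.39 ± 0.62), *Egr3* (2.43 ± 0.68) and *Atf3* (2.17 ± 0.56; all SD, n = 3). The neighbours *Egr1* and *Fos*, *Fos* and *Jun*, *Fosl1* and *Fosb*, and *Egr3* and *Atf3* overlapped between libraries. In WT MEFs *Junb* again stood first (188 ± 51.7), followed by *Egr1* (91.2 ± 19.3) and *Ier3* (80.1 ± 3.52), which overlapped, and *Jun* (49.5 ± 4.19). *Fos* came next in WT, at 26.4 ± 2.78. *Atf3* at 12.6 ± 7.15 overlapped *Fosl1* and *Egr2*, and *Egr3* came last at 5.65 ± 1.04. By a fixed measure of likeness, the genes outside every list whose levels ran closest to the mean of the 10 over the 6 MEF libraries were *Mucl3*, *Rpp25*, *Cxadr*, *Rasgrf2* and *Lhx6* (Pearson r 0.98 to 0.99 among 1443 genes with at least 1 CPM and an SD of log2 CPM of at least 0.5).

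Other early response genes were also more often lower than higher in RepB-/- MEFs. Of 38 such genes tested, 6 rose (against 19.4% of all genes tested), 17 fell (against 19.7%) and 15 did not pass. The fallers were led by *Areg*, a ligand of the EGF receptor, at 0.646 ± 0.16 CPM in RepB-/- and 3.17 ± 2.19 CPM in WT (log2 difference -2.25, adjusted p = 0.00214; -1.55 without WT replicate 1, which was its highest library at 5.69 CPM), *Phlda1*, which encodes a pleckstrin homology protein (3.99 ± 1.24 and 15.5 ± 6.82 CPM; -1.94, adjusted p = 1.60e-04) and *Nr4a3*, an orphan nuclear receptor (1.70 ± 0.65 and 6.38 ± 1.14 CPM; -1.90, adjusted p = 1.62e-04; -1.75 without WT replicate 1, when it fell most of the 3). The risers were led by *Klf2*, a zinc finger factor, at 52.3 ± 7.52 CPM in RepB-/- and 26.3 ± 5.72 CPM in WT (log2 difference 0.98, adjusted p = 1.46e-04). *Ccn1*, a matrix protein gene driven by serum response factor and YAP, rose from 1484 ± 262 to 2221 ± 164 CPM (0.58, adjusted p = 0.00136), and *Rhob*, a small GTPase gene, from 223 ± 32.4 to 331 ± 7.79 CPM (0.57, adjusted p = 3.90e-04). The list thus held genes of both directions, and its median was -0.15 against 0.00 for all genes. Without WT replicate 1, 6 of the 38 rose and 15 fell, and the median was -0.04.

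**Figure D3:**
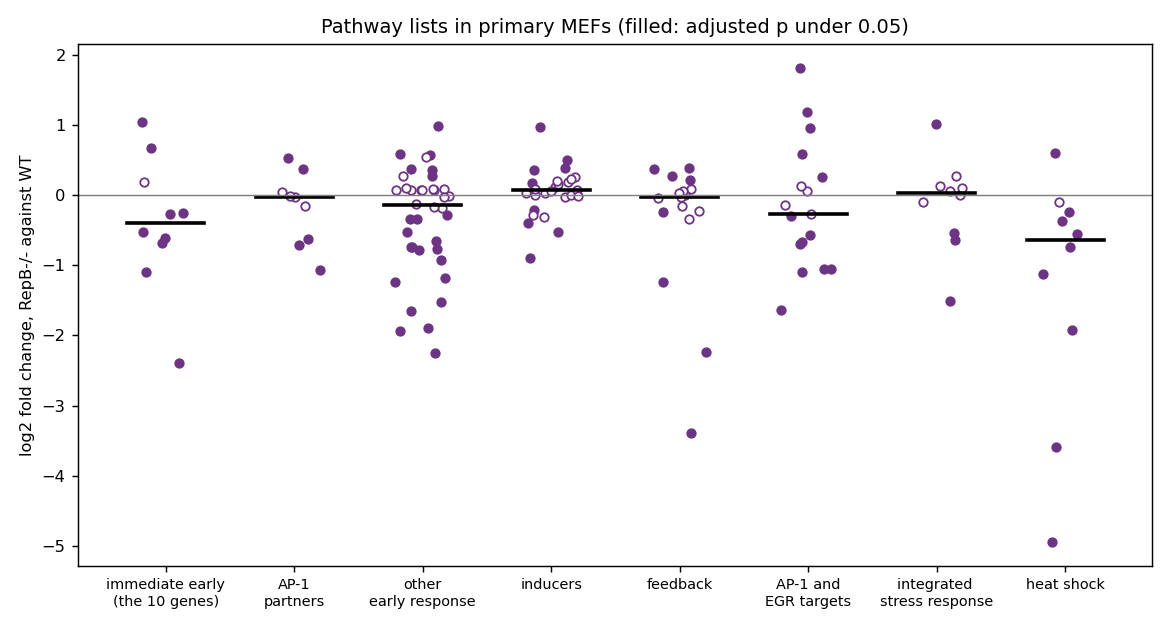
Log2 fold change of RepB-/- against WT MEFs for each tested gene of the 10 genes and of 7 pathway lists, 1 point per gene, filled where the adjusted p was under 0.05, with a black line at the list median. The heat shock list had the lowest median (-0.64), the 10 genes had -0.40, and the inducers had 0.07.

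In the signal arm upstream, 26 receptors, kinases and factors that induce the early genes were tested. Of these, 5 rose (against 19.4% of all genes tested), 4 fell (against 19.7%) and 17 did not pass, with a median of 0.07. The counts were thus near the shares over all genes. With scaling by library size alone, 4 rose and 6 fell. *Pdgfra*, the receptor for platelet-derived growth factor in fibroblasts, rose from 102 ± 5.22 to 200.2 ± 17.9 CPM (log2 difference 0.97, adjusted p = 1.70e-06). *Egfr*, the EGF receptor gene, fell from 110.3 ± 11.9 to 59.0 ± 2.28 CPM (-0.90, adjusted p = 6.02e-06). *Mapk8*, which encodes the JUN kinase JNK1, rose by 0.50 (adjusted p = 0.00278) and *Mrtfb*, a coactivator of serum response factor, by 0.38 (adjusted p = 0.00212). *Elk1*, the ETS partner of serum response factor, fell by 0.52 (adjusted p = 4.97e-04) and *Rps6ka2*, a kinase downstream of ERK, by 0.40 (adjusted p = 0.00479). *Srf* itself did not pass the test, with a log2 difference of 0.03.

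Among 17 feedback genes, which end the response, 4 rose (against 19.4% of all genes tested), 4 fell (against 19.7%) and 9 did not pass. The fallers included 3 phosphatases of MAP kinases. *Dusp4* measured 6.93, 7.44 and 8.72 CPM in RepB-/- and 121, 57.9 and 64.1 CPM in WT, a 10.4-fold lower mean (log2 difference -3.39 ± 0.24, adjusted p = 4.79e-07). Its WT libraries lay far above all RepB-/- libraries, and it fell further than any of the 10 early genes. *Dusp5* fell by 1.24 ± 0.13 (adjusted p = 1.34e-05) and the weakly expressed *Dusp2* by 2.24 ± 0.59 (adjusted p = 0.00890). *Nfkbia*, the inhibitor of NF-κB, rose by 0.39, *Zfp36l1*, which removes mRNAs with AU-rich elements, by 0.38, and *Nab1*, a corepressor of EGR factors, by 0.27 (adjusted p = 0.00490, 0.00283 and 0.0406). The call of *Nab1* was lost without WT replicate 1 (adjusted p = 0.0899), and with scaling by library size alone 2 of the 17 rose and 7 fell.

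Of 9 tested AP-1 partners outside the 10 genes, 2 rose (against 19.4% of all genes tested), 3 fell (against 19.7%) and 4 did not pass. Besides *Fosl2*, *Atf7*, a zipper factor that binds the same sites as CREB, rose from 55.6 ± 0.18 to 72.2 ± 1.03 CPM (log2 difference 0.38, adjusted p = 9.72e-04). The 3 fallers were the small MAF genes, which encode zipper proteins without an activation domain. *Mafk* fell from 125 ± 20.1 to 59.3 ± 3.69 CPM (-1.07, adjusted p = 6.21e-06), *Maff* by 0.71 (adjusted p = 3.12e-05) and *Mafg* by 0.63 (adjusted p = 0.00126).

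Of 17 genes known as targets of AP-1 or EGR factors, 5 rose (against 19.4% of all genes tested), 8 fell (against 19.7%) and 4 did not pass. The targets thus did not share a direction. *Il6*, a cytokine gene, measured 15.0, 16.5 and 14.5 CPM in RepB-/- and 4.57, 4.45 and 4.10 CPM in WT (log2 difference 1.81 ± 0.14, adjusted p = 1.19e-06). *Ccl2*, a monocyte chemokine gene, rose from 78.3 ± 20.7 to 178 ± 16.5 CPM (1.18, adjusted p = 4.53e-05) and *Mmp9*, a gelatinase gene, from 1.82 ± 0.41 to 3.51 ± 0.32 CPM (0.95, adjusted p = 0.0127). *Plau*, the urokinase gene, fell from 235 ± 96.1 to 75.5 ± 8.20 CPM (-1.63, adjusted p = 5.34e-05), with WT replicate 1 at 343 CPM and the other WT libraries at 160 and 202 CPM. *Vegfa*, the vascular growth factor gene, fell by 1.09 (adjusted p = 5.11e-05) and *Mmp10*, a stromelysin gene, by 1.06 (adjusted p = 1.89e-04).

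Stress genes that share inducers with *Atf3* were examined beside it. In the integrated stress response, ATF4 switches on *Atf3* and *Ddit3*. Of its 10 genes, 1 rose (against 19.4% of all genes tested), 3 fell (against 19.7%) and 6 did not pass. *Ddit3*, which encodes CHOP, fell from 47.8 ± 15.4 to 16.6 ± 1.39 CPM (log2 difference -1.52, adjusted p = 2.71e-05), *Ppp1r15a*, the GADD34 gene, by 0.64 (adjusted p = 0.00242; by 0.40 without WT replicate 1) and *Sesn2*, the sestrin 2 gene, by 0.54 (adjusted p = 0.00214). *Vldlr*, a lipoprotein receptor gene, rose by 1.01 (adjusted p = 3.91e-05), and *Atf4* did not pass the test, with a log2 difference of 0.00. Of 10 heat shock genes, 8 fell (against 19.7% of all genes tested) and 1 rose (against 19.4%). *Hspb1*, which encodes HSP27, measured 160, 164 and 178 CPM in RepB-/- and 901, 485 and 523 CPM in WT (-1.93 ± 0.18, adjusted p = 4.72e-06). *Hspa1b* fell by 4.94 ± 0.30 from 1001, 383 and 499 CPM in WT (adjusted p = 1.19e-07) and *Hspa1a* by 3.59 ± 0.33 (adjusted p = 4.72e-06), but the pair is near identical in sequence and their split is uncertain. *Hsp90aa1*, a chaperone gene, rose by 0.60 (adjusted p = 1.67e-04). WT replicate 1 was the highest library for *Hspb1*, *Hspa1b*, *Hspa1a*, *Ddit3*, *Dusp4* and *Plau*, as it was for the 7 early genes that fell.

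Without WT replicate 1, 2 of the 10 early genes were called higher (18.9% of all genes tested) and 6 lower (18.5%), with *Fosl1* the gene lost, and 7 of the 10 heat shock genes were called lower. The part of heat shock in the differences of the early genes was not tested. Markers of fibroblasts and of other cells also moved with genotype in MEFs. The fibroblast list summed to between 12524 and 14908 CPM in RepB-/- and between 9614 and 11965 CPM in WT. *Col1a1*, *Dcn* and *Prrx1* rose (log2 difference 0.54, 1.31 and 0.35), *Thy1* fell (-0.28) and *Col1a2* was not called. The smooth muscle list fell in 3 of 5 genes (*Acta2*, *Cnn1* and *Myh11*) and summed to between 1877 and 2276 CPM in RepB-/- and between 3158 and 4455 CPM in WT. Its other genes, *Des* and *Tagln*, were not called, and *Tagln* stood at only 0.974 CPM in RepB-/- and 1.05 CPM in WT. An endothelial list fell in 3 of its 4 tested genes (*Pecam1*, *Kdr* and *Cdh5*), rose in *Tek*, and summed to between 19.3 and 20.9 CPM against 30.0 to 37.6 CPM. An epithelial list summed to between 9.28 and 13.9 CPM against 28.1 to 37.2 CPM, through *Krt19*, while *Krt14* rose and *Epcam* stayed at 1.21 plain CPM or less. Of the 5 macrophage markers, *Adgre1* rose from 0.969 ± 0.43 to 3.13 ± 0.42 CPM (adjusted p = 0.00198) and *Csf1r* from 10.4 ± 0.94 to 15.8 ± 1.57 CPM (adjusted p = 0.00217), *Cd68* fell by 0.62 on the log2 scale to 7.72 ± 0.56 CPM (adjusted p = 0.0267), *C1qa* was too low to be tested and *Clec4f* was at 0; the list summed to between 23.8 and 28.5 CPM in RepB-/- and between 20.7 and 30.8 CPM in WT. The 5 neutrophil markers summed to at most 2.65 CPM in any MEF library, with *S100a9* at 0 and *S100a8*, the only one tested, not called (adjusted p = 0.155). The part of these cells in the differences of the early genes was not tested.

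In liver, 0 of the 8 early genes tested differed between RepB-/- and WT, and the libraries of the genotypes overlapped for all 10. *Fosl1* and *Egr3* were too low to be tested. The same edgeR test called 6 of 16080 genes (0.0373%), with 502 genes at an unadjusted p under 0.05 (3.12%) of which none was an early gene, and DESeq2 called 75 genes (0.366%), again none of them an early gene. Libraries did not overlap for 8.05% of all genes tested. The biological coefficient of variation was 51.2% in liver against 9.06% in MEFs.

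*Jun* had the largest log2 difference in liver and did not pass the test. It measured 87.9, 30.5 and 21.6 CPM in RepB-/- and 36.1, 14.7 and 11.2 CPM in WT, with replicate 1 the highest of each genotype. The difference was 1.17 ± 0.66 (SE; 95% interval -0.39 to 2.74, adjusted p = 1.00). *Jun* was higher in RepB-/- in each of the 3 same-numbered pairs, although the labels do not pair libraries by number. Blocking on that number gave 1.10 ± 0.18 (SE, adjusted p = 0.297), in a fit that called 0.0498% of all genes tested. *Junb* measured 39.5, 29.0 and 14.4 CPM in RepB-/- and 24.3, 14.5 and 13.8 CPM in WT (0.66, 95% interval -0.33 to 1.64). *Fos* measured 6.08, 1.95 and 1.60 CPM in RepB-/- and 4.73, 1.94 and 0.845 CPM in WT (0.36, 95% interval -1.50 to 2.22), far under its level in MEFs. Both genotypes were again led by replicate 1 for *Junb* and *Fos*, and on this scale RepB-/- was higher in each same-numbered pair. By plain library size, *Junb* in replicate 3 was lower in RepB-/- (4.95 against 6.13 CPM per kilobase). *Fos* in replicate 2 was then level, at 0.808 in RepB-/- and 0.809 in WT. By TMM-scaled CPM, each of the other early genes was lower in RepB-/- in at least 1 such pair. *Egr1* was lower in replicates 1 and 2, *Atf3* in replicates 2 and 3, and *Ier3* and *Egr2* in replicate 2. The share of all genes higher in every pair was not counted. The block gave 0.59 ± 0.24 for *Junb* and 0.42 ± 0.33 for *Fos* (SE, adjusted p = 0.742 and 0.854). *Fosb* stayed at 0.625 CPM or less in every liver (0.28, 95% interval -1.04 to 1.59).

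*Egr1* was the most even of the abundant early genes between the genotypes, at 43.0, 15.6 and 32.7 CPM in RepB-/- and 60.8, 21.3 and 13.9 CPM in WT. Its log2 difference was -0.07 (95% interval -1.54 to 1.39), and *Atf3*, at 3.93, 1.33 and 0.992 CPM against 2.16, 2.92 and 1.67 CPM, had -0.11 (95% interval -1.55 to 1.34). For *Egr1* replicate 1 was the highest library of both genotypes, for *Atf3* of RepB-/- alone. *Egr2* rested on between 4 and 27 counts per library (log2 difference 1.05 ± 0.81, SE). *Ier3* measured 4.19, 1.15 and 1.25 CPM in RepB-/- and 1.96, 1.47 and 0.613 CPM in WT (0.71, 95% interval -0.96 to 2.37). Every adjusted p was 1.00. *Fosl1* had between 5 and 13 counts in each liver, and *Egr3* between 0 and 10. The counts of 0 for *Egr3*, in RepB-/- replicate 2 and WT replicate 3, allow up to 0.0582 and 0.0647 CPM by plain library size, which covers counting error only.

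**Figure D4:**
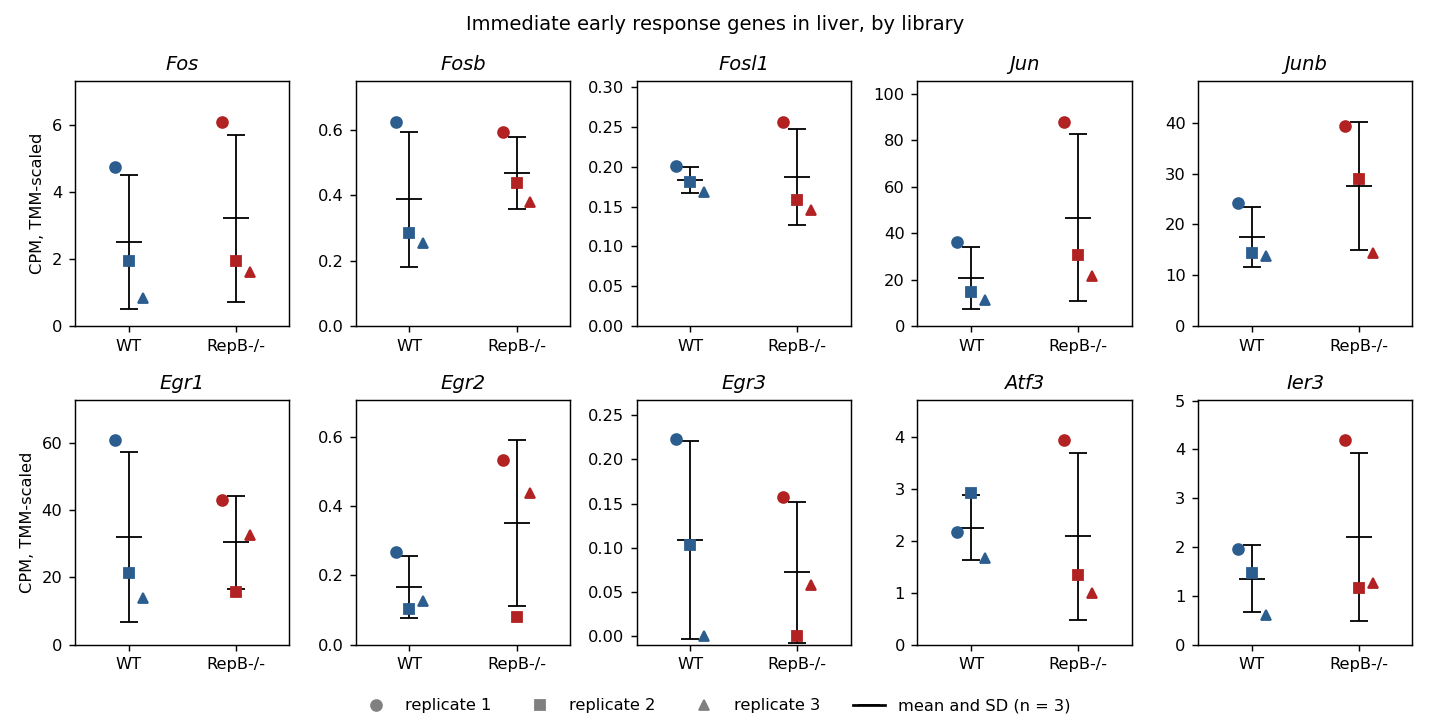
Normalized expression (TMM-scaled CPM, linear axes) of the 10 genes in each liver library, blue for WT and red for RepB-/-, with symbols for replicate numbers and black bars for the mean and SD of 3 libraries. Replicate 1 (circles) was the highest of its genotype except for *Atf3* in WT, and the genotypes overlapped for every gene.

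The replicate 1 livers of both genotypes were also compared with the other 4 livers. In a fit with a term for replicate 1 against replicates 2 and 3, the log2 difference of replicate 1 was 1.77 ± 0.37 (SE) for *Fos*, 1.62 ± 0.21 for *Jun*, 1.38 ± 0.45 for *Ier3* and 1.34 ± 0.37 for *Egr1*. It was 1.14 ± 0.73 for *Egr2*, 0.92 ± 0.52 for *Atf3*, 0.87 ± 0.46 for *Fosb* and 0.82 ± 0.28 for *Junb*. These values are descriptions, since the replicates were set apart by their fetal-stage markers after the data were seen. The share of all genes higher in replicate 1 was not counted. Neutrophil markers (*S100a8*, *S100a9*, *Elane*, *Mpo*, *Ly6g*) moved with the same libraries, at 345 CPM in RepB-/- replicate 1, 38.2 CPM in WT replicate 1 and 1.78 to 5.70 CPM in the other 4 livers. Fibroblast markers summed to 656 and 487 CPM in the replicate 1 livers and to between 183 and 238 CPM in the rest, endothelial markers to 317 and 385 CPM against 172 to 195 CPM, and smooth muscle markers to 86.4 and 119 CPM against 15.5 to 34.6 CPM. Macrophage markers (283 and 463 CPM against 259 to 355 CPM) and epithelial markers (118 and 169 CPM against 53.3 to 350 CPM) did not set both replicate 1 livers apart. The part of liver stage and of these cells in the levels of the early genes was not tested. With the replicate 1 term, 0 of the 8 genes passed for genotype (0.056% of all genes tested), and likewise when RepB-/- replicate 2, which carries the Y-linked reads, was also left out. The liver genes closest to the mean of the 8 over the 6 libraries were *Sox4*, *Mapkapk3*, *Fam117a*, *Hmcn1* and *Padi4* (Pearson r 0.99 to 1.00 among 4885 genes).

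Per length, *Jun* (14.8 ± 13.0 CPM per kilobase by plain library size), *Junb* (11.9 ± 6.77) and *Egr1* (6.50 ± 3.52) stood first in RepB-/- livers, and *Junb* (8.29 ± 3.70), *Egr1* (7.99 ± 7.10) and *Jun* (7.19 ± 5.46) in WT livers (SD, n = 3). These 3 overlapped one another in both genotypes. *Ier3*, *Fos* and *Atf3* followed, between 0.978 and 1.95, and overlapped, and *Fosl1*, *Fosb*, *Egr2* and *Egr3* all averaged under 0.1. *Jund* was the main JUN gene in liver, with 64.7% to 81.3% of the JUN sum per length, against 1.93% to 2.91% in MEFs. The values of the tissues come from tables with separate annotations and are set side by side without a test. The pathway lists held 0 called genes in liver, and of the genes named above *Vldlr* (log2 difference -1.29), *Ppp1r15a* (0.87) and *Mrtfb* (0.74) had an unadjusted p under 0.05 there (0.0171, 0.0185 and 0.0346, adjusted p = 1.00 each).

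**Figure D5:**
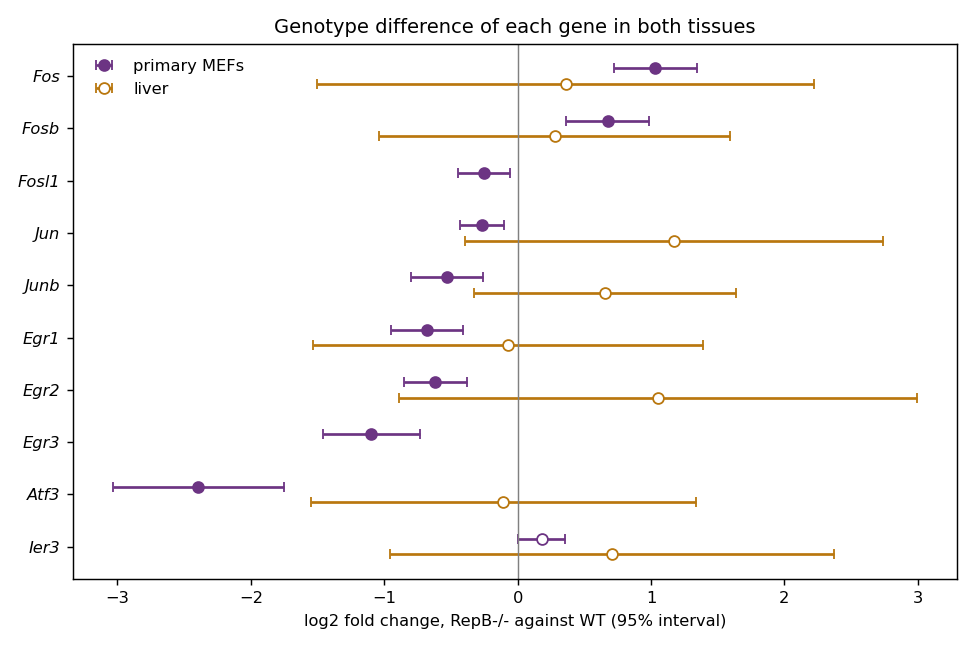
Log2 fold change of RepB-/- against WT with its 95% interval for each gene, purple for MEFs and orange for liver, filled where the adjusted p was under 0.05 (*Fosl1* and *Egr3* were not tested in liver). The MEF intervals exclude 0 for the 9 called genes and lie at 0.00 to 0.36 for *Ier3*, and the 8 liver intervals all include 0.

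Whether the genotype difference itself differed between MEFs and liver was tested as an interaction of tissue and genotype over all 12 libraries. It passed for 0 of the 8 early genes tested in both tissues, and for 59 of 15208 genes (0.388%), with 2166 genes (14.2%) at an unadjusted p under 0.05. The difference of MEFs minus liver was -2.29 ± 0.72 for *Atf3* (SE; unadjusted p = 0.00903, adjusted p = 0.187), -1.18 ± 0.47 for *Junb* (unadjusted p = 0.0288, adjusted p = 0.283) and -1.65 ± 0.70 for *Egr2* (unadjusted p = 0.0391, adjusted p = 0.320). These 3 were the early genes with an unadjusted p under 0.05 in this fit, which used the same estimate of spread per gene for both tissues. With limma voom and weights by tissue, *Junb* and *Jun* were under 0.05 (unadjusted p = 0.0369 and 0.0202, adjusted p = 0.392 and 0.310). *Atf3* and *Egr2* were then not (unadjusted p = 0.151 and 0.241). *Fosl1* and *Egr3* entered this fit through their MEF counts, and their liver counts were too low for their term to say whether the tissues differed. *Jun* had -1.43 ± 0.70 (95% interval -2.99 to 0.12, adjusted p = 0.391) and was called with replicate number as a block within tissue (-1.37 ± 0.17, adjusted p = 0.0308), the fit in which 192 genes (1.26%) passed. *Egr1* had -0.61, *Ier3* -0.53, *Fos* 0.67 and *Fosb* 0.38, with intervals that include 0 and adjusted p-values between 0.767 and 0.795.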

How the data were processed

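The 12 libraries used, 3 per genotype in MEFs and in liver, were grouped by their labels. The deposited tables hold whole-number counts per gene that the authors did not normalize. The paper's methods name Cutadapt, Hisat2 and stranded libraries from 2 companies, and the submitters' processing notes name Trim Galore 0.4.1, STAR 2.7.0 and HTSeq 0.12.4; which applied to these tables is not given in the sources used here. Coordinates are GRCm39 in the MEF table and GRCm38 in the liver table. FPKM values, which the authors deposited per library, served only to look for listed zeros. The 6 columns of liver TPM were left out, and brain samples were not analysed here.

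Each tissue was fitted with edgeR 4.0.16 in R 4.3.3 (TMM, filterByExpr, quasi-likelihood test, Benjamini-Hochberg, threshold 0.05), and the tissues were compared by an interaction term over genes listed in both tables. Intervals are 95% intervals of the log2 fold change. Levels per length used merged exon lengths and plain library sizes, and family sums used TMM-scaled CPM. Alternatives were DESeq2 1.42.0, its size factors, library size alone, no filter, replicate blocks, limma 3.58.1 voom, a replicate 1 term in liver, and each library left out; that term without RepB-/- replicate 2 was added after seeing the data. The fits were tested on simulated data. Same-numbered libraries deviated together in liver (correlations 0.71, 0.36 and 0.37 after removing genotype means) but not in MEFs (-0.01, -0.04 and -0.00). Replicate 1 stood apart in both liver genotypes, and removing means of 3 libraries then moves replicates 2 and 3 the same way. The correlations therefore cannot show that replicates 2 and 3 are paired, and libraries of unlike numbers were not compared.

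The 10 genes, the lists and the rule for naming genes (the up to 3 largest called rises and falls of each list, and the 5 genes most like the mean) were chosen with earlier results of these data known. *Egr4*, *Jund*, *Srf* and *Atf4* were named after their values were seen. Promoter sequences came from RefSeq (GRCm38.p6). Figures used matplotlib 3.10.9. The summed level of 1 marker list in liver is not reported here.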

Additional observations from a re-analysis of the deposited data

How the results depend on the processing

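In MEFs, *Fos*, *Fosb*, *Junb*, *Egr1*, *Egr2*, *Egr3* and *Atf3* kept their direction and their call under all 11 alternatives run. The number of early genes called was 8 with DESeq2 and with the replicate block, and 7 to 10 with single libraries left out. Genes called overall numbered 3956 to 5233 with libraries left out. Scaling by library size alone shifted the median of all genes to -0.11 in MEFs and to -0.15 in liver and changed the share of MEF calls that were higher from 49.6% to 31.2%, without changing a call of the 10 genes. The replicate block lost *Fosl1* in MEFs (adjusted p = 0.0572) and gained *Jun* for the interaction (1 early gene); it changed no other call of the 10 genes.

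In liver, the number of genes called was 75 with DESeq2, 0 with library size alone or no filter, 3 with the replicate 1 term without RepB-/- replicate 2, and 0 to 4 with single libraries left out (0 without any one of the RepB-/- replicates or WT replicates 2 or 3). Directions of uncalled liver genes turned. *Egr1* was 0.079 with the replicate block, 0.14 with the replicate 1 term, 0.32 with that term without RepB-/- replicate 2, and -0.43 to 0.79 with single libraries left out. *Fos* ranged from -0.49 to 1.21, *Atf3* from -0.95 to 0.23 and *Ier3* from -0.16 to 1.08 with single libraries left out. The interaction was called for 39 genes by limma voom, 192 with the block and 17 without liver RepB-/- replicate 2. The cause of these changes was not tested. Low counts limit *Egr2*, *Egr3*, *Fosb* and *Fosl1* in liver.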

Other observations

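The deposited liver FPKM values list *Junb* at 0 in RepB-/- replicate 3, WT replicate 1 and WT replicate 3, while the count table holds 493, 1090 and 654 counts of *Junb* in the same libraries, so levels per length were computed from the counts.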
